A study of Mus musculus with 2 samples.

Results

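The genes described here are 39 genes of glucose breakdown and of the response to low oxygen, measured by RNA-seq in libraries labelled as mouse retina. They were chosen as every gene of both deposited count tables that bears 1 of 39 listed names. These names matched 40 of the 52632 genes used, because Aldoa stands for a pair of gene identifiers. The labels give 1 library of wild-type (WT) C57BL/6 mice and 1 of C57BL/6 mice without the microRNA miR-29a (miR-29a KO), at an age of 8 weeks in both. Each library pools retinas from 3 animals. How the miR-29a deletion was made is not given in the sources used here. With 1 library per genotype there is no replicate check, no SD and no p-value, and every difference below compares these libraries and not the genotypes. Intervals are exact (Clopper-Pearson) 95% intervals, and they cover counting error only.

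Glycolysis turns glucose into pyruvate through a chain of enzymes, most of which exist as isozymes coded by separate genes. Lactate dehydrogenase then turns pyruvate into lactate, and monocarboxylate transporters carry lactate across the cell membrane. Low oxygen stops prolyl hydroxylases from marking the HIF alpha proteins for breakdown, and stable HIF switches on many glycolysis genes along with genes of mitophagy, pH control and matrix synthesis. Photoreceptors of the retina are known for making lactate even when oxygen is plentiful.

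The libraries held 26805902 counts (WT) and 24876925 counts (KO). Their content did not match the labelled retina, so they are named by their labels only. Where an unmarked pair of values is given, the library labelled WT comes first and the library labelled KO second. The deleted gene, Mir29a, had 0 counts in both libraries (a 0 allows up to 3 counts), so it does not check the genotype labels. Of 35 markers of photoreceptors and inner retinal neurons, 29 lay under 1 CPM in each, where CPM is a gene's count per 1000000 counts of its library. Those above it included Rom1 (50.8 and 22.1 CPM) and Prkca (33.6 and 48.4 CPM). Of 8 markers of retinal Mueller glia, 4 (WT) and 5 (KO) lay under 1 CPM, whereas Dkk3 had 331 and 288 CPM and Glul 139 and 170 CPM. The median of 12 fibroblast markers was 735 and 827 CPM. The pools also differed in sex-linked transcripts, with Xist at 4288 and 0 counts and the Y-linked gene Ddx3y at 67 and 376. Pgk1, which lies on the X chromosome, is the X-linked gene among the 39. In such mixed RNA, fewer cells of a type and less RNA per cell cannot be told apart.

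In the library labelled KO most of these genes were lower by small margins, and a handful were much lower. Of the 39 genes, 38 reached 50 counts in at least 1 library, whereas Car9 did not, nor did the second Aldoa identifier. The log2 ratio is KO over WT after adding 0.5 to each CPM, and a gene was called where it reached 1 or -1. By this rule 6 of 38 were lower, where 2.82% of 12382 genes were, and 0 of 38 were higher, where 4.47% of all genes were. The 6 were Ndufa4l2, Slc16a3, Ankrd37, Pfkl, Eno2 and Pdk1. The log2 ratio was below 0 for 28 of 38 genes (73.7%) and for 45.0% of all genes. Its median was -0.28 over the 38 and 0.06 over all genes. The counting interval of the CPM ratio lay wholly below 1 for 25 genes and wholly above 1 for 10, and it held 1 for 3. Over all 12382 genes these numbers were 3867, 4992 and 3523. Just past the threshold was Pdk1 (log2 ratio -1.01), and the nearest gene short of it was Tpi1 (-0.93).

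**Figure D1:**
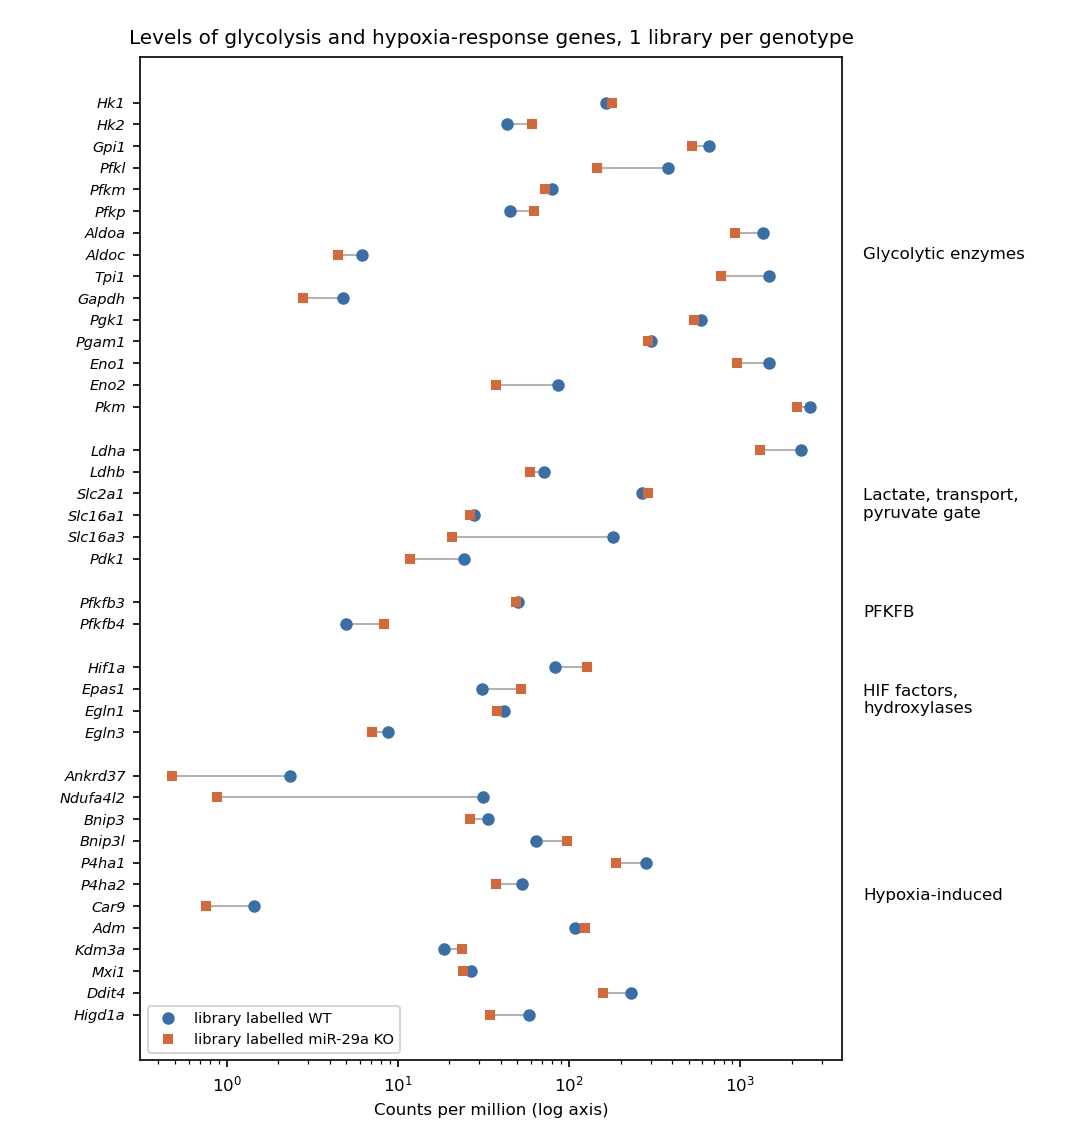
Level of each of the 39 genes in CPM (log axis), with circles for the library labelled WT, squares for the library labelled KO and a grey line joining them; genes are grouped by role. Ndufa4l2 (31.3 and 0.884 CPM) and Slc16a3 (180 and 20.6 CPM) have the longest lines, while Pkm and Ldha lie at the right in both libraries.

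**Figure D2:**
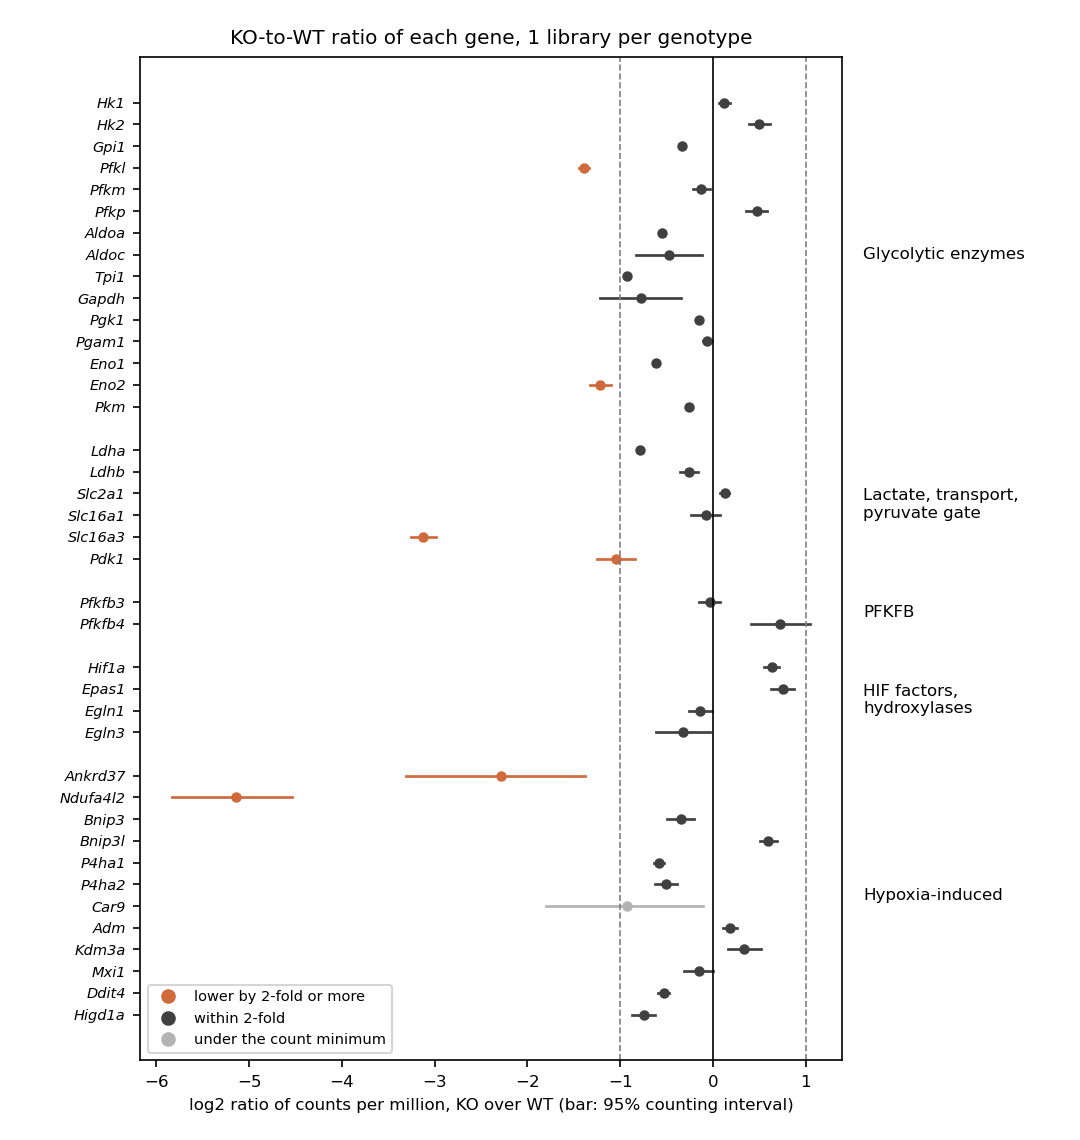
Log2 of the KO-to-WT ratio of CPM for each gene, with no addition to the values, with 95% counting intervals as bars and dashed lines at 2-fold. The 6 genes called lower are coloured, and no gene is called higher; 1 library per genotype.

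The first steps of glycolysis did not move together. Hexokinase traps glucose in the cell as its phosphate. Hk1, the hexokinase gene of most tissues, had 165 and 179 CPM (1.09-fold, interval 1.05 to 1.14). Hk2, the gene induced by insulin and low oxygen, had 43.2 and 61.2 CPM (1.42-fold higher, 1.31 to 1.53). Both hexokinase genes thus stood slightly higher in the library labelled KO. Gpi1, the phosphoglucose isomerase gene, went the other way with 660 and 523 CPM (1.26-fold lower, 1.23 to 1.29).

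Phosphofructokinase commits sugar to glycolysis, and its liver, muscle and platelet isozyme genes differed. Pfkl, the liver-type gene (ENSMUSG00000020277, chromosome 10, 77986947 to 78010083, GRCm38), had 10199 and 3618 counts. These were 380 and 145 CPM, a 2.62-fold lower value in the library labelled KO (2.52 to 2.72). Pfkm, the muscle-type gene, was nearly level at 79.5 and 72.9 CPM (1.09-fold lower, 1.02 to 1.16). Pfkp, the platelet-type gene, was higher, with 45.2 and 62.6 CPM and a WT-to-KO ratio of 0.721 (0.669 to 0.778). Of the FPKM summed over the isozymes, Pfkl thus made up 65.3% (WT) and 42.6% (KO). FPKM is the authors' value per kilobase of gene. FPKM shares, here and below, depend on the gene lengths behind it, which were not checked against transcript lengths. The FPKM share of Pfkm was 30.8% and 48.2%, and that of Pfkp 3.86% and 9.14%. By counts, which are not scaled for length, Pfkl held 75.3% (74.6 to 76.0) and 51.8% (50.6 to 52.9), Pfkm 15.7% and 25.9%, and Pfkp 8.94% and 22.3%. The share of Pfkl was thus smaller in the library labelled KO on both scales, whereas Pfkm passed it there by FPKM and not by counts. On the opposite strand, Pfkp overlaps Pitrm1 by 748 bases (1120 and 1134 counts) and Pfkm overlaps Senp1 by 1156 bases (295 and 360 counts). Without strand information, reads in these overlaps cannot be told apart.

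Most genes of the later steps of the chain were lower in the library labelled KO, and their levels spanned a wide range. Aldoa, which codes for the aldolase of muscle and most other tissues, had 411 and 271 FPKM (CPM ratio 1.46-fold lower, 1.43 to 1.48). The second Aldoa identifier, a neighbouring gene model, had 5 and 2 counts. Aldoc, the brain-type aldolase gene, was scarce with 166 and 111 counts (1.39-fold lower, 1.09 to 1.78). Tpi1, the triose phosphate isomerase gene, had 39591 and 19296 counts (1.90-fold lower, 1.87 to 1.94) and reached 567 and 287 FPKM. Pgk1 and Pgam1, which act after glyceraldehyde phosphate dehydrogenase, lay close to level at 593 and 534 CPM (Pgk1) and 300 and 288 CPM (Pgam1). Eno1, the widely expressed enolase gene, had 1471 and 963 CPM, a KO-to-WT ratio of 0.655 (0.645 to 0.666).

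Eno2, the enolase gene best known from neurons (ENSMUSG00000004267, chromosome 6, 124760053 to 124769673), was lower by more than its abundant relative. It had 2321 and 930 counts (86.6 and 37.4 CPM, 2.32-fold lower, 2.15 to 2.50). Pkm, which codes for pyruvate kinase, had 544 and 438 FPKM, the latter the highest FPKM of the 39 genes in the library labelled KO (CPM ratio 1.20-fold lower, 1.18 to 1.21). Eno2, Tpi1 and Gapdh are neighbours on chromosome 6, with 40.9 kb between Eno2 and Tpi1 and 347 kb between Tpi1 and Gapdh. All of these neighbours had log2 ratios below 0, at -1.20, -0.93 and -0.68. Elsewhere on chromosome 6, Hk2 (0.50) and Kdm3a (0.33) were above 0 and Ldhb (-0.26) was below. Whether position plays a part was not tested. The Gapdh value rests on 129 and 70 counts and is uncertain, as described below. In all, 12 of the 15 glycolytic enzyme genes were below 0, where 45.0% of all genes were. Called lower were 2 of the 15, where 2.82% of all genes were, and the median log2 ratio was -0.33. The counts of these 15 genes made up 0.924% of the library labelled WT and 0.674% of the library labelled KO. These shares leave out reads counted to near-identical copies, such as those of Gapdh.

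Gapdh, a gene widely used as a reference for RNA amounts, had only 129 and 70 counts. Its 1.23 and 0.693 FPKM lay far under the 567 and 287 FPKM of Tpi1, the gene of the preceding step. Gapdh has many processed copies in the mouse genome. In GENCODE M21, 92 other genes matched a Gapdh transcript at 95% identity or more over 200 bases or more. The pseudogene Gm13394 (chromosome 2, 99.9% identity over 1000 bases) had 15320 and 3416 counts. Gapdh itself thus held 0.786% and 1.48% of the counts of Gapdh and its copies together. Summed over the gene and its copies there were 613 and 190 CPM, a 3.23-fold lower KO value (3.13 to 3.34), against 1.71-fold (1.27 to 2.32) for Gapdh alone. The copies did not move together: Gm7336 was 2.78-fold higher (128 and 330 counts) while Gm13394 was 4.16-fold lower. How the authors' counter shared reads between copies is not given in the sources used here, so the Gapdh values are uncertain.

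**Figure D3:**
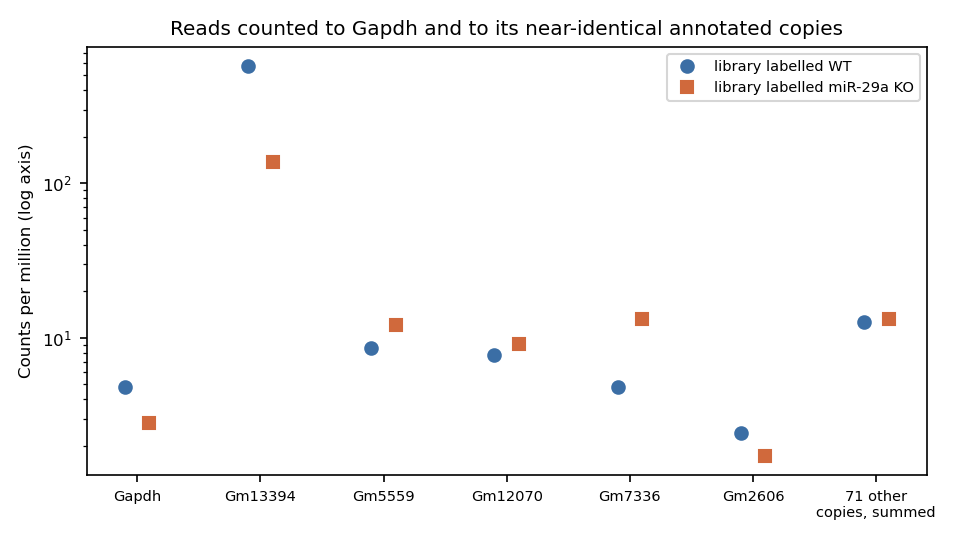
CPM (log axis) of Gapdh, of the 5 near-identical copies with 50 or more counts in either library, and of the other 71 copies with counts summed, with circles for the library labelled WT and squares for the library labelled KO. Gm13394 stands far above Gapdh in both libraries, at 572 and 137 CPM.

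Shared reads mattered less for the other enzymes. Eno1 held 87.5% and 90.7% of the counts of Eno1 and its near-identical relatives, among them Eno1b (3278 and 2038 counts) and the pseudogene Gm4735 (2295 and 390 counts). Adding those reads moved the Eno1 log2 ratio from -0.61 to -0.66. Tpi1 held 98.8% of such counts in both libraries, and Pkm, Ldha, Pgk1, Pgam1 and Gpi1 each held 99.1% or more.

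Among the genes of lactate handling, the exporter stood out. Slc16a3 codes for MCT4, the monocarboxylate transporter by which glycolytic cells release lactate (ENSMUSG00000025161, chromosome 11, 120948480 to 120960868). It had 4814 and 513 counts (180 and 20.6 CPM). The KO value was 8.71-fold lower (7.95 to 9.56). Slc16a1, which codes for the related transporter MCT1, had 751 and 660 counts, a difference within counting error (1.06-fold lower, 0.950 to 1.17). The balance of the pair therefore turned over. Slc16a3 gave 84.2% (WT) and 39.3% (KO) of their summed FPKM. By counts these shares were 86.5% (85.6 to 87.4) and 43.7% (40.9 to 46.6).

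Ldha, which codes for the lactate dehydrogenase subunit that favours lactate, had the highest FPKM of the 39 genes in the library labelled WT, at 719 against 401 in the library labelled KO. Its CPM ratio was 1.72-fold lower (2250 and 1306 CPM, 1.70 to 1.75). Ldhb, the heart-type subunit gene, had 71.3 and 59.6 CPM (1.20-fold lower, 1.12 to 1.28). Ldha made up 93.7% and 91.2% of their summed FPKM. Pdk1, whose kinase shuts pyruvate out of the mitochondrial citrate cycle, had 655 and 295 counts (ENSMUSG00000006494, chromosome 2, 71873224 to 71903858). It was 2.06-fold lower (1.79 to 2.37), and its interval reaches to less than 2-fold. Slc2a1, the gene of the glucose transporter GLUT1, was instead slightly higher at 267 and 291 CPM (1.09-fold, 1.06 to 1.13). Of these 6 transport, lactate and pyruvate genes 2 were called lower and 5 were below 0, against 2.82% and 45.0% of all genes. Their median log2 ratio was -0.52.

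The deleted microRNA pairs with its targets through its seed, bases 2 to 8, shown in capitals with the 1 matching site found in these genes. The matching heptamer TGGTGCT was searched for in 1 annotated 3′ UTR per gene, the longest. The mature sequence is RefSeq's (chr6:31062673-31062694, minus strand, GRCm38.p6), and the site lies on chromosome 3.
miR-29a-3p: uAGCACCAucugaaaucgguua
Slc16a1 site: tagtctaccagTGGTGCTcagtgcagacag
The heptamer was present in 1 of 38 genes, against 16.1% of 11585 protein-coding genes searched. It lies at bases 74 to 80 of the 2740-base 3′ UTR of Slc16a1. Slc16a1 is known from pancreatic beta cells as a gene held down by miR-29. Here its level was 28.0 and 26.5 CPM. The genes that were called lower have no such heptamer in the UTRs searched.

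The kinase and phosphatase genes that set fructose 2,6-bisphosphate, the activator of phosphofructokinase, split. Pfkfb3, the gene of the strongly kinase-active form, had 50.4 and 49.2 CPM, again within counting error (1.02-fold lower, 0.947 to 1.11). Pfkfb4 was 1.66-fold higher on 134 and 206 counts (1.33 to 2.08).

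Both HIF alpha genes stood higher in the library labelled KO while 8 of 11 hypoxia-induced genes had log2 ratios below 0. Hif1a, which codes for the alpha subunit found in most cells, had 2210 and 3186 counts (82.4 and 128 CPM, 1.55-fold higher, 1.47 to 1.64). Epas1, which codes for HIF-2 alpha, a form abundant in endothelial cells, had 834 and 1303 counts (31.1 and 52.4 CPM, 1.68-fold higher, 1.54 to 1.84). Neither reached 2-fold. HIF alpha is controlled mainly as a protein, which these libraries do not measure. Egln1, the main prolyl hydroxylase gene, had 41.6 and 37.8 CPM (1.10-fold lower, 1.01 to 1.20), and Egln3, a hydroxylase gene that HIF itself induces, had 235 and 175 counts (1.25-fold lower, 1.02 to 1.52).

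Many endothelial and macrophage markers also had higher values in the library labelled KO. Of 11 endothelial markers 9 passed the count minimum, and 5 of these were called higher and 0 lower, against 4.47% and 2.82% of all genes. The endothelial list summed to 30.8 and 60.1 CPM, with 0 markers at 0 counts in either. Among those not called, Tek had 176 and 167 counts, Emcn 212 and 163, and Cldn5, under the minimum, 16 and 9. Of 15 macrophage and microglia markers 12 passed the minimum, of which 11 were called higher and 0 lower, against the same shares of all genes. That list summed to 289 and 720 CPM, and the microglial gene Cx3cr1 had 0 and 5 counts. Tmem119, listed as a microglial marker and with more counts, had the opposite direction (3245 and 2063 counts, 1.46-fold lower, 1.38 to 1.54). P2ry12, of the same list, had 6 and 9 counts. Which cells the Tmem119 reads came from was not tested. The part of endothelial cells and macrophages in the Hif1a and Epas1 values was not tested either.

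The genes known to be induced by low oxygen ranged from a 35.4-fold deficit to a modest excess. Ndufa4l2 codes for a mitochondrial protein that lowers complex I activity in low oxygen (ENSMUSG00000040280, chromosome 10, 127514967 to 127517154). It had 840 and 22 counts (31.3 and 0.884 CPM). The KO value was 35.4-fold lower (23.2 to 56.9). Its relative Ndufa4, which codes for a constitutive respiratory chain subunit, did not share this, with 4283 and 4794 counts. Ndufa4l2 overlaps Shmt2 on the opposite strand by 32 bases, and Shmt2 had 3371 and 2010 counts. Ankrd37, a small ankyrin repeat gene known as a HIF target (ENSMUSG00000050914, chromosome 8, 45996902 to 46005707), had 63 and 12 counts. It was 4.87-fold lower (2.60 to 9.93), a wide interval set by the low counts. On the opposite strand Ankrd37 overlaps Ufsp2 by 57 bases (401 and 417 counts), and it shares 6405 bases with Lrp2bp (2 and 2 counts).

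The mitophagy receptor genes of this group parted. Bnip3 was 1.27-fold lower (904 and 659 counts, 1.15 to 1.41), whereas Bnip3l was 1.51-fold higher (1713 and 2408 counts, 1.42 to 1.61). Bnip3 thus went from 47.3% of their summed FPKM in the library labelled WT to 31.8% in the library labelled KO. The collagen prolyl hydroxylase subunit genes moved alike. P4ha1 had a KO-to-WT ratio of 0.668 (280 and 187 CPM, 0.644 to 0.693) and P4ha2 one of 0.704 (53.4 and 37.6 CPM, 0.647 to 0.765).

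Higd1a, which codes for a mitochondrial protein induced by low oxygen, was 1.68-fold lower (1558 and 862 counts, 1.54 to 1.82). Ddit4, whose protein restrains mTORC1 under stress, had the highest FPKM of these 12 genes, with 139 and 92.1 (CPM ratio 1.45-fold lower, 1.39 to 1.51). Car9, the gene of a surface carbonic anhydrase that is a classic HIF target, stayed under the count minimum with 39 and 19 counts (1.90-fold lower, 1.07 to 3.49). Car9 overlaps the antisense gene Gm12454 (20 and 19 counts), and without strand information their reads cannot be told apart. Not all genes of the group were lower. Adm, which codes for the vasodilator peptide adrenomedullin, had 108 and 123 CPM (1.14-fold higher, 1.08 to 1.20). The histone demethylase gene Kdm3a had 18.7 and 23.7 CPM (1.27-fold higher, 1.12 to 1.43). Mxi1, which codes for a MYC antagonist, had 26.7 and 24.0 CPM with an interval that held 1. Of the 12 hypoxia-induced genes 11 passed the minimum, and the median log2 ratio was -0.50. Of these 11, 8 were below 0 and 2 were called lower, against 45.0% and 2.82% of all genes.

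HIF binds a short DNA core, ACGTG or GCGTG, in the control regions of its targets. The windows from 250 bases before to 50 bases after each annotated start (RefSeq, GRCm38.p6) were searched for both forms of the core on both strands. A CACGTG was counted on each strand, and overlapping matches were all counted. Windows were found for 36 of 39 genes, and none was listed for Bnip3l, Epas1 and Ndufa4l2. Those printed show genes called lower (Slc16a3, Ankrd37, Pdk1), the abundant Ldha, and a pair of HIF targets that were not lower (Adm, Slc2a1). Each runs 5′ to 3′ on the gene's strand, and capitals mark the cores.
Slc16a3, chr11:120948817-120949116, plus strand: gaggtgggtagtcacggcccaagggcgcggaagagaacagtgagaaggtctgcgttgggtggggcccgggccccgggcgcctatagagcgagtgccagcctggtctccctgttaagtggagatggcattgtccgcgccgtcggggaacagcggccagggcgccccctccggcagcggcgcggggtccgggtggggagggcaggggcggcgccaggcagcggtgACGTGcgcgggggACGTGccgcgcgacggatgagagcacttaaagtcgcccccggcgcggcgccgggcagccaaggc
Ankrd37, chr8:45999801-46000100, minus strand: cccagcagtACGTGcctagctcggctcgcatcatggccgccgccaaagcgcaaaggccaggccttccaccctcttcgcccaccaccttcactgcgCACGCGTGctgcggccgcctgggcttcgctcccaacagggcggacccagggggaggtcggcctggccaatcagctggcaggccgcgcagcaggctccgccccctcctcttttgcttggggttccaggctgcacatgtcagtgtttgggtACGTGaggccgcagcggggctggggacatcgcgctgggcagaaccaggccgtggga
Pdk1, chr2:71872974-71873273, plus strand: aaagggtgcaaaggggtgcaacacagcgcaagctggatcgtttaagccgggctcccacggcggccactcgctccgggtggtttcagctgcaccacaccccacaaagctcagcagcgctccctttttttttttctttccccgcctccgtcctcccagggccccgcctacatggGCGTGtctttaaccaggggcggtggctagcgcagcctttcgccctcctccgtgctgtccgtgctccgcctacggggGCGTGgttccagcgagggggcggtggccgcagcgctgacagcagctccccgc
Ldha, chr7:46845554-46845853, plus strand: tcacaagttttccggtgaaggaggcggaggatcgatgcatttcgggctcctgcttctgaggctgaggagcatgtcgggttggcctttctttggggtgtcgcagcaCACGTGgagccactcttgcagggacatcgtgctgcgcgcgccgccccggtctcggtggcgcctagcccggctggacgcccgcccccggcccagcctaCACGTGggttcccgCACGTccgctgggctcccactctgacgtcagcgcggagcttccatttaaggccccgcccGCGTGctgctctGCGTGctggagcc
Adm, chr7:110627407-110627706, plus strand: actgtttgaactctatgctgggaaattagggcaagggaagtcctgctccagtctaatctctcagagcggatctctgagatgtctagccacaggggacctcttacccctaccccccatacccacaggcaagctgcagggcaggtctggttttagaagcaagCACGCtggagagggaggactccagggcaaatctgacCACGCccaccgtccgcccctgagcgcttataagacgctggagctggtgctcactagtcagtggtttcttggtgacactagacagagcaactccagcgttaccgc
Slc2a1, chr4:119108495-119108794, plus strand: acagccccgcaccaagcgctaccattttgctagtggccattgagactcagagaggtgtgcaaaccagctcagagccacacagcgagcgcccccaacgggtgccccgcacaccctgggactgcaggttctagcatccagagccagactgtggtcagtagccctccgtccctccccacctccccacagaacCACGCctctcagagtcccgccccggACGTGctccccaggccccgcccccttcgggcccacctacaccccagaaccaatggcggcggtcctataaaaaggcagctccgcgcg
The Ldha window held 7 matches and the Ankrd37 window 4. Slc16a3, Pdk1, Adm and Slc2a1 had 2 each. Second windows of Pdk1 and Ldha, not printed, held 0 and 2. Of the other genes called lower, Pfkl had 1 match and Eno2 had 0. The Slc16a3 pair lies close together, in ACGTG form, shortly before the annotated start.

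At least 1 core was present in 42 of 53 windows of these genes (79.2%). It was present in 43.8% of all 32851 windows and in 62.5% of the windows of genes past the count minimum. The median GC content was 63.0% for the windows of these genes, against 52.7% for all and 61.0% for those past the minimum. The genes with no core in any window were Eno2, Tpi1 and Gpi1. A match describes the sequence and does not show that HIF binds there.

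Within families, the largest shifts of isozyme share were those of the lactate transporters, the phosphofructokinases and the BNIP3 pair. The hexokinase share of Hk2 was 27.3% and 32.8%. That of Eno2 among the enolases was 6.31% and 4.25%. The HIF alpha pair kept nearly the same balance, with Epas1 at 29.5% and 31.2%. P4ha2 took 11.2% and 11.7% of its pair, and Egln3 22.2% and 20.1%.

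**Figure D4:**
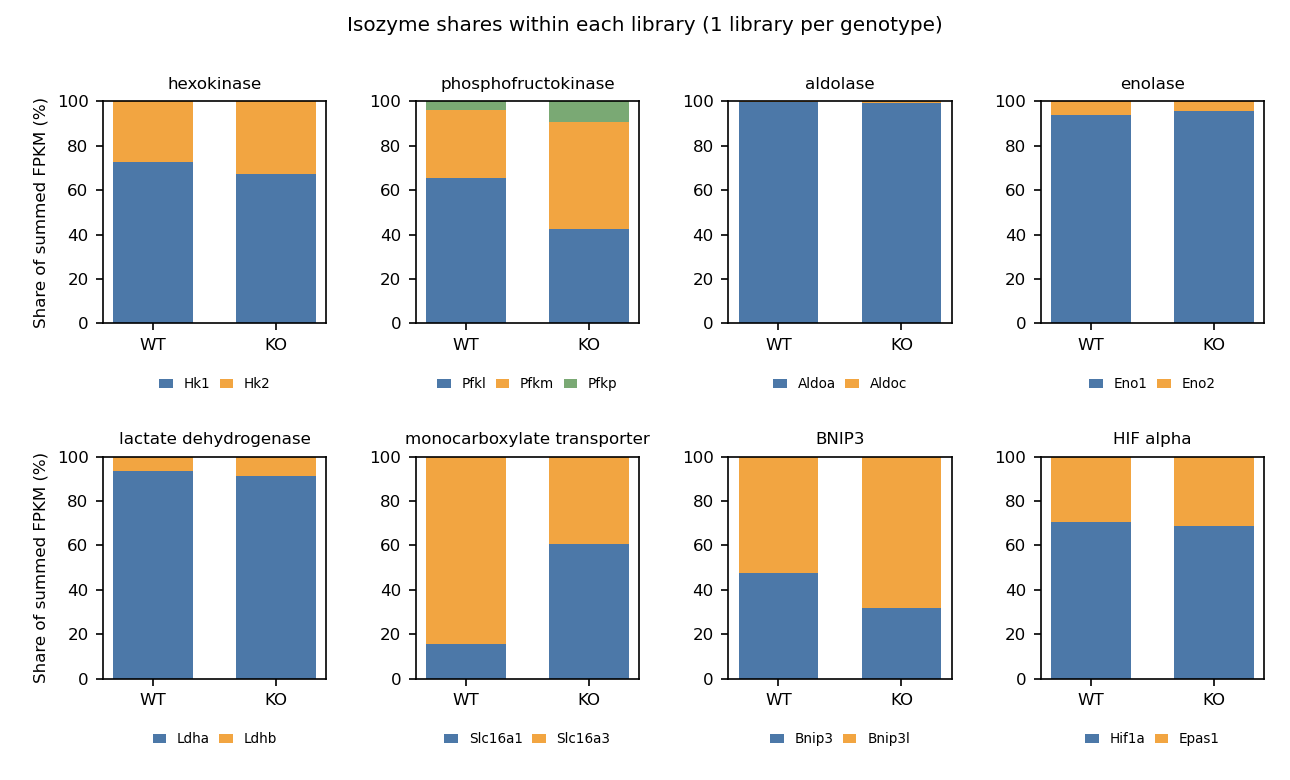
Share of the summed FPKM (%) that each isozyme gene takes within its family, as stacked bars for the library labelled WT and the library labelled KO. The Slc16a3 share goes from 84.2% to 39.3% and the Pfkl share from 65.3% to 42.6%, while the aldolase and HIF alpha families look alike in both bars.

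Transcript composition moved with the ratio. Across 12371 genes, which are not independent replicates and share the same pair of libraries, the Spearman rank correlation between transcript GC content and the log2 ratio was -0.44. The median GC content was 52.1% for the 38 genes and 49.9% for all. After subtracting the median of genes of like GC content and then of like length, 6 of 38 genes were still lower by 2-fold, where 2.90% of all genes were. Of the 38, 0 were higher, where 3.59% of all genes were. The 6 were the same genes, and the log2 ratio of Ndufa4l2 was -4.17, of Slc16a3 -2.91, of Ankrd37 -1.53, of Pdk1 -1.23, of Pfkl -1.23 and of Eno2 -1.05. The median over the 38 was -0.31 after this step. Hif1a, a transcript of low GC content (41.3%), went from 0.63 to 0.29, whereas Epas1 went from 0.74 to 0.77.

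**Figure D5:**
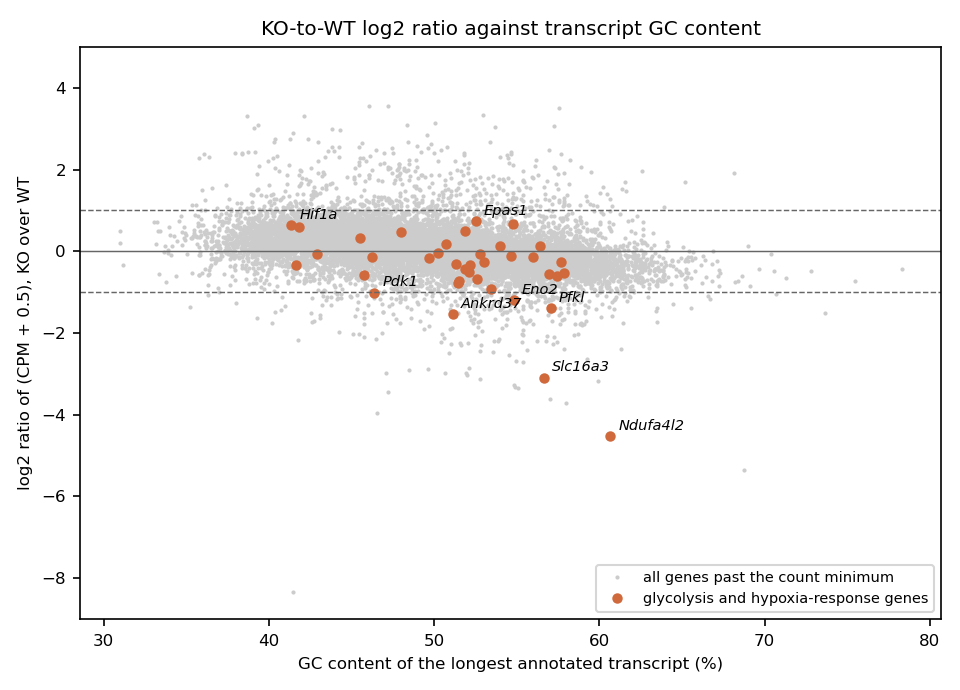
Log2 ratio of KO over WT (0.5 added to each CPM) against the GC content of the longest annotated transcript (%), for all genes past the count minimum (grey) and the 38 genes described here (coloured). The grey cloud slopes downward to the right, and Slc16a3 (GC 56.6%) and Ndufa4l2 (60.7%) lie well under it.

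Other genes of these pathways were counted in the same way, and their difference from the 39 was not tested. Called higher were 4.47% of all genes and lower 2.82%, or 3.59% and 2.90% after the GC and length correction. Of 22 other glycolytic isozymes and branch enzymes 13 passed the minimum, 2 were called higher and 1 lower, 5 were below 0 and the median log2 ratio was 0.14. After the GC and length correction 1 was higher and 1 lower, 8 were below 0 (61.5%, where 6181 of all 12371 genes were) and the median was -0.08. Hk3, the hexokinase gene typical of myeloid cells, was 3.50-fold higher (176 and 571 counts, 2.95 to 4.16), alongside the macrophage markers given above, whose part in it was not tested. Tigar, whose product lowers fructose 2,6-bisphosphate, was 2.16-fold higher (1.74 to 2.67), and its corrected log2 ratio of 0.81 was short of the threshold. G6pdx, the first gene of the pentose phosphate branch, had the most counts (4052 and 4397).

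Of 22 other genes of glucose, lactate and pyruvate handling 18 passed, 0 were called higher and 1 lower, with a median of 0.27. After the correction the median was -0.03 and 11 were below 0 (61.1%), where 7 had been. The lower gene was Slc2a4, which codes for the insulin-responsive transporter GLUT4 (95 and 25 counts, 3.53-fold lower, 2.25 to 5.72). Bsg, whose product basigin escorts MCT1 and MCT4 to the membrane, had the most counts (40561 and 26935, log2 ratio -0.48). Of 15 other HIF pathway components 14 passed and 0 were called in either direction, with log2 ratios from -0.40 to 0.59 and a median of 0.09 (0.04 after the correction). Elob, which codes for a subunit of the ubiquitin ligase that removes HIF alpha, had the most counts (9027 and 8238).

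Other hypoxia-induced genes went both ways. Of 50 measured, all passed the minimum, and 5 were called higher and 4 lower, against 4.47% and 2.82% of all genes. The 50 include Ndufa4 (log2 ratio 0.27, not called), which is described above as constitutive, so not every gene of this list is hypoxia-induced. Below 0 were 25 of the 50, and the median was 0.01. After the GC and length correction 3 were higher and 3 lower, against 3.59% and 2.90% of all genes. Then 30 were below 0 and the median was -0.15. Cox4i2, which codes for a cytochrome oxidase subunit isoform induced by low oxygen, was 6.94-fold lower (142 and 19 counts, 4.28 to 11.9). Cxcr4, a chemokine receptor gene expressed by blood and endothelial cells, was 8.08-fold higher (18 and 135 counts, 4.92 to 14.0). Pdgfb (3.14-fold) and the transferrin receptor gene Tfrc (2.64-fold) were also higher. P4hb, the shared subunit of the collagen prolyl hydroxylases, had the most counts (35544 and 27065, log2 ratio -0.29). Vegfa, the best-known HIF target, was named after its value was seen. It had 4785 and 6259 counts and a log2 ratio of 0.49.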

How the data were processed

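Ribosomal RNA was removed from the total RNA of pooled retinas before library preparation (NEBNext Ultra, a kit without strand marking) and Illumina sequencing, per the labels' protocols. The submitters' processing notes name HISAT2 and the build mm10 (GRCm38). Not given in the sources used here are the read counter, its annotation and its strand setting. For every gene the deposited tables list the authors' raw count and FPKM, per the file headers. The deposited FPKM log2 ratios (KO over WT) were offset from those of CPM by -0.06, and the total behind the FPKM is not given in the sources used here.

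Of 52636 genes, 4 whose count-to-FPKM ratio differed between the tables by over 1% were left out. CPM is a gene's count per library total. Ratios, the 50-count minimum and the 2-fold rule are given with the results. A count of 0 allows up to 3 counts (0.112 CPM in the library labelled WT, 0.121 in KO). GENCODE M21 gave positions, transcripts and 3′ UTRs, and the GC and length correction used 10 bins of each. Copies were found with blastn 2.17.0 from the protein-coding transcripts of each gene. The members and gene lists, the alternatives and the rule for named genes (all 39 in role groups, called genes in full, up to 4 called genes and the most counted gene of each wider list) were chosen with earlier results of these data known. The procedure was run on simulated Poisson counts, with a single library per group and no variation between libraries. That run therefore cannot show whether the intervals cover such variation. Alternatives were edgeR TMM and median-of-ratios factors, a reduced total, other pseudocounts, minimums and thresholds, the FPKM, and the GC and length correction. Adding the reads of copies was chosen after seeing the data. Software was edgeR 4.0.16 under R 4.3.3, and matplotlib 3.10.9, scipy 1.17.1, pandas 2.3.3 and numpy 2.4.6 under Python 3.11.15. Some single genes of the wider lists are not reported here.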

Additional observations from a re-analysis of the deposited data

How the results depend on the processing

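With 1 library per genotype, depth limits the scarce genes such as Ankrd37 and Car9, and differences between libraries cannot be separated from differences between genotypes. At 1.5-fold 11 of 38 genes were lower, where 8.88% of all genes were. At 4-fold 2 were lower (Ndufa4l2 and Slc16a3), where 0.468% of all genes were. Higher at 1.5-fold were 4 of 38 (Hif1a, Epas1, Bnip3l and Pfkfb4), where 13.3% of all genes were. The median log2 ratio of the glycolytic enzymes, -0.33, was -0.40 with median-of-ratios factors and -0.39 with the deposited FPKM. Calls were lost for Pdk1 and Ankrd37 with a pseudocount of 2 CPM (4 genes lower), which draws the ratios of scarce genes toward 0. With the FPKM the call of Pdk1 was lost (5 lower). Its 3.32 and 1.55 FPKM were more than 2-fold apart, but after 0.5 was added to each the log2 ratio was -0.90. A minimum of 200 counts removed Ankrd37 (63 and 12 counts) from the genes compared, which left 5 lower. Adding the reads of near-identical copies, chosen after seeing the data, gave 7 lower, with Gapdh the addition (log2 ratio -1.69). The share of all genes lower was 1.73% with the pseudocount of 2 CPM and 2.33% with the FPKM. It was 2.17% at the 200-count minimum and 2.83% with the copies added. Other pseudocounts, minimums and thresholds cannot change the sign of a log2 ratio, so they say nothing about it. The settings that can are the other factors and total, the FPKM, the GC and length correction and the added copies. Of 28 genes with a log2 ratio below 0, 26 kept that sign in all of these. Pgam1 and Egln1 lay just above 0 after the GC and length correction. All 10 genes above 0 kept their sign in the same settings. No paired analysis was possible because each genotype has a single library, with no second replicate number.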
